A study of Mus musculus with 12 samples.

Results

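The MAP kinase dual-specificity phosphatases are enzymes that switch off ERK, JNK and p38 by removing phosphate from both the tyrosine and the threonine of the activation loop. The 10 genes described here are Dusp1, Dusp2, Dusp4, Dusp5, Dusp6, Dusp7, Dusp8, Dusp10, Dusp14 and Dusp16, chosen by symbol as known members of the family, out of 24421 genes in the deposited table. RNA-Seq was done on 12 libraries of mouse embryonic fibroblasts (MEFs), 3 for each of 4 groups. The groups were MEFs with the genotype labelled Null, called WT in the paper, and MEFs with TFEB and TFE3 inactivated by CRISPR (TFEB/TFE3 DKO), each untreated or after 8 h in 100 µM etoposide, a drug that traps topoisomerase II on DNA and leaves double-strand breaks. TFEB and TFE3 are transcription factors that bind E-box sequences in the promoters of lysosomal, autophagy and stress genes. Both genotypes were grown in the same medium with serum, and each was represented by 1 line derived from SV40-immortalized MEFs, in which p53 can be altered. Differences between the genotypes therefore cannot be told apart from other differences between the lines. The paper says that controls received the solvent DMSO, while the labels call them untreated, the word used here. RNA was isolated with 1 of 2 kits, and the labels do not say which libraries had which. Nothing in the labels says that the 3 replicates came from separate cultures, so the p-values measure the spread between these libraries, which may be technical.

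The family is grouped by where its members act and on what. Dusp1, Dusp2, Dusp4 and Dusp5 are nuclear and are mostly encoded by early-response genes that MAP kinase signalling itself induces, so that they work as negative feedback. Dusp6 and Dusp7 are cytoplasmic and prefer ERK, Dusp8, Dusp10 and Dusp16 are directed mainly at JNK and p38, and Dusp14 is a small atypical member that lacks the domain by which the others dock to their kinases.

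Tfeb and Tfe3, the targeted genes, were looked at first. Tfeb was measured at 38.9, 39.2 and 42.1 CPM in untreated Null MEFs, 11.4, 10.2 and 10.4 CPM in Null MEFs after etoposide, 4.60, 6.09 and 4.68 CPM in untreated DKO MEFs and 1.92, 1.61 and 2.20 CPM in DKO MEFs after etoposide. Every DKO library was below every Null library of the same treatment, and etoposide lowered the gene in both genotypes. Tfe3 was measured at 115, 109.9 and 114 CPM in untreated Null MEFs, 68.5, 69.6 and 68.1 CPM in Null MEFs after etoposide, 94.1, 93.1 and 91.0 CPM in untreated DKO MEFs and 70.7, 71.2 and 63.4 CPM in DKO MEFs after etoposide. It was still transcribed in all DKO libraries, below the Null libraries when untreated and overlapping with them after etoposide, so its RNA level does not check the labels, while that of Tfeb goes with them. Of the 11 fibroblast markers none was at 0 in any library, and their summed level was 7183 to 7334 CPM in untreated Null MEFs, 3825 to 3956 CPM in Null MEFs after etoposide, 11705 to 12347 CPM in untreated DKO MEFs and 4890.0 to 5240.4 CPM in DKO MEFs after etoposide, with Vim or Fn1 the most abundant. Most of these markers went the way of the sum between the genotypes. In DKO against Null MEFs 10 were called higher and 1 lower untreated, and 9 higher and 2 lower after etoposide (adjusted p under 0.05 in edgeR). Of all genes 33.3% were higher and 33.4% lower untreated, and 37.5% and 36.6% after etoposide. Untreated, Thy1 was the lower one, at 4.21 ± 0.251 CPM in Null and 0.0365 ± 0.0220 CPM in DKO MEFs. Pdgfra was at 20.9 ± 0.576 and 197 ± 9.75 CPM (SD, n = 3 each). After etoposide Vim was lower too, at 1631 ± 19.6 CPM in Null and 801 ± 9.74 CPM in DKO MEFs (SD, n = 3 each). CPM values here use library sizes scaled by the TMM method of edgeR. The 6 epithelial markers summed to 2.26 to 2.87, 3.32 to 4.10, 5.05 to 5.94 and 2.02 to 2.57 CPM in the same order. The fall of this sum in DKO MEFs was that of Krt8, from 4.58 ± 0.763 to 0.513 ± 0.156 CPM (SD, n = 3 each). The means of Cdh1, Epcam, Krt5, Krt14 and Krt18 were higher there after etoposide, with Cdh1 going from 0.703 ± 0.258 to 1.26 ± 0.0522 CPM (SD, n = 3 each). The 4 endothelial markers, low throughout, summed to 0.0615 to 0.221, 2.19 to 2.89, 0.0543 to 0.211 and 0.888 to 1.52 CPM, higher after etoposide in both genotypes. The highest count in any library was 21 for Cdh5 and 16 for Kdr, so no test of these genes is used here. For the 6 immune markers the sums were 15.8 to 19.0, 76.4 to 77.2, 7.10 to 8.68 and 11.7 to 14.1 CPM, mostly from Cd14 and Cd68, while Cd3e was at 0 in 11 libraries and Adgre1 in 8. The 4 muscle markers summed to 3.00 to 3.37, 33.9 to 39.3, 3.84 to 4.60 and 3.74 to 4.77 CPM, with Myod1 at 0 in 7 libraries and Des the most abundant in Null MEFs after etoposide. The sums in DKO MEFs hide opposite moves with etoposide. There Des went from 0.386 ± 0.0913 to 2.44 ± 0.184 CPM and Acta1 from 3.73 ± 0.334 to 1.94 ± 0.447 CPM (SD, n = 3 each). The part of these differences in the results was not tested. In bulk RNA, fewer cells with a transcript and less of it per cell cannot be told apart.

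Libraries held from 66956083 to 83970210 gene counts in untreated Null MEFs, from 63286195 to 76125320 in Null MEFs after etoposide, from 66749645 to 104120871 in untreated DKO MEFs and from 45577023 to 94388705 in DKO MEFs after etoposide. Uniquely placed reads that were assigned to no counted feature made up 25.1 to 27.3% of the total in Null MEFs after etoposide and 20.2 to 24.2% in the other groups, and the part of this in the results was not tested.

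**Figure D1:**
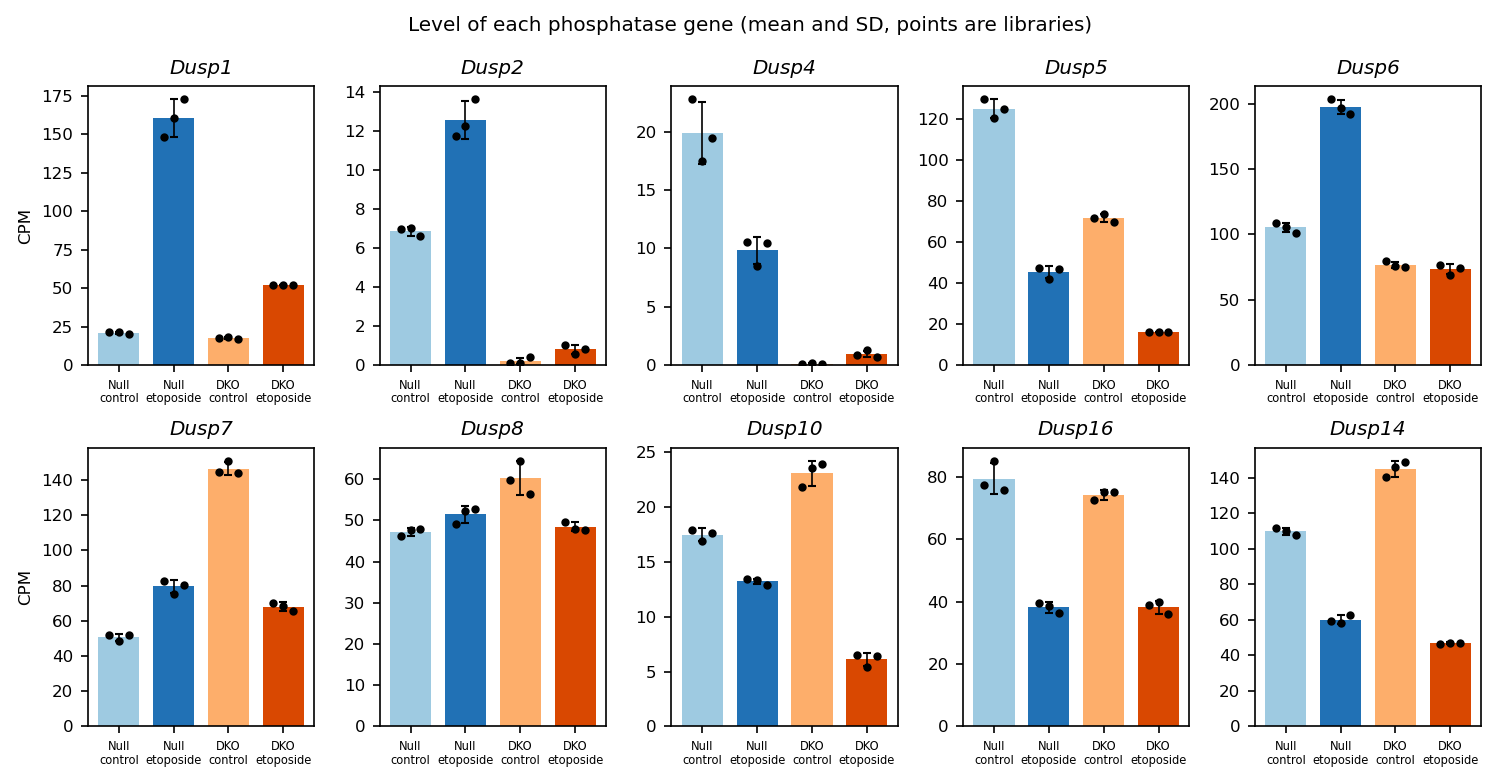
Level of each of the 10 phosphatase genes in CPM (vertical axis, from 0) in the 4 groups (horizontal axis). Bars are means, error bars are the SD and points are the 3 libraries of a group, and Dusp1 reached 161 CPM in Null MEFs after etoposide against 51.9 CPM in DKO MEFs.

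Etoposide split the family in Null MEFs. Dusp1, Dusp2, Dusp6, Dusp7 and Dusp8 rose and Dusp4, Dusp5, Dusp10, Dusp14 and Dusp16 fell, so that all 10 members passed the threshold, an adjusted p under 0.05 by the quasi-likelihood test of edgeR (Benjamini-Hochberg adjusted) over 15220 genes. The call of Dusp8 was lost in 6 of 15 alternatives and that of Dusp2 in 1, limma-trend. Of all genes tested, 79.4% were called in this comparison, 42.3% higher and 37.2% lower, so the number of members called is near what most genes did. The members' median log2 fold change was -0.14 against 0.07 for all genes. In DKO MEFs 9 members were called, 3 higher (Dusp1, Dusp2 and Dusp4) and 6 lower, against 75.1% of all genes called, 43.7% higher and 31.5% lower. There the members' median was -0.64, with 0.14 for all genes.

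Without the drug the genotypes differed in both directions, and after it members were called in 1 direction only. Untreated DKO MEFs had 4 members higher than Null MEFs (Dusp7, Dusp8, Dusp10 and Dusp14) and 5 lower (Dusp1, Dusp2, Dusp4, Dusp5 and Dusp6), in a comparison where 66.7% of all genes were called, 33.3% higher and 33.4% lower. After etoposide no member was called higher in DKO MEFs, and 8 were lower (Dusp1, Dusp2, Dusp4, Dusp5, Dusp6, Dusp7, Dusp10 and Dusp14), where 74% of all genes were called, 37.5% higher and 36.6% lower. DESeq2 and limma-trend called no member higher either. The members' median log2 difference after etoposide was -1.27, and that of all genes was -0.00446. The test of the interaction, the etoposide change in DKO MEFs minus that in Null MEFs, called 9 members, 7 with a lower value in DKO MEFs and 2 with a higher one (Dusp2 and Dusp4), against 54% of all genes, 29.6% higher and 24.4% lower. These comparisons share libraries, so their values are set side by side and not as separate evidence.

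**Figure D2:**
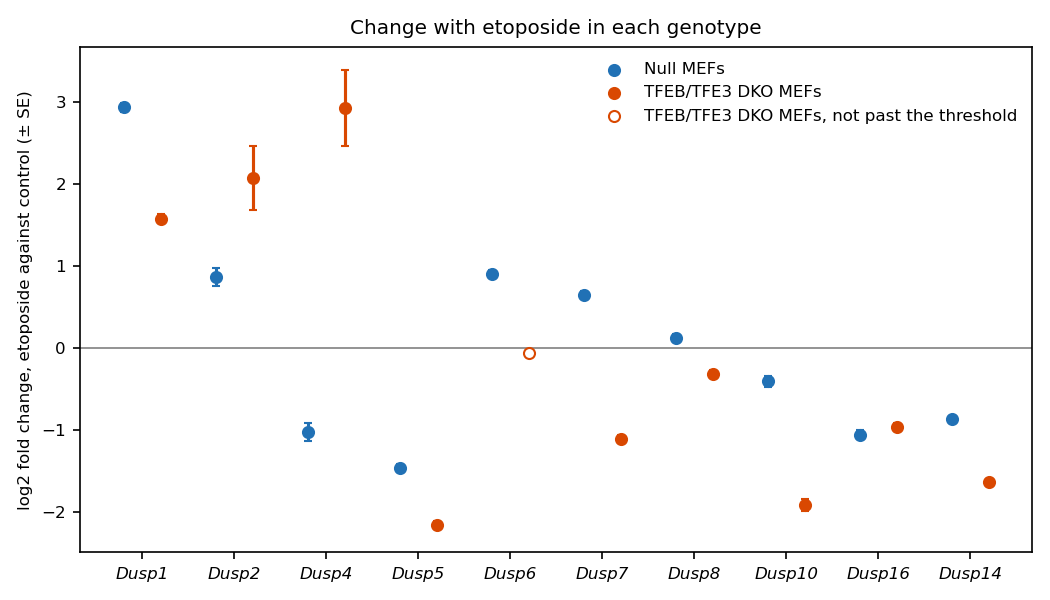
Log2 fold change with etoposide (vertical axis, error bars are the SE) of each member (horizontal axis) in Null and TFEB/TFE3 DKO MEFs, 3 libraries against 3 in each. Open symbols did not pass the threshold, and Dusp4 lay at -1.03 in Null and 2.93 in DKO MEFs while Dusp7 lay at 0.65 and -1.11, and the value of Dusp6 in DKO MEFs, -0.06, was 0.21 when scaled by library size alone.

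Dusp1 (GENCODE M21 on GRCm38, chr17:26505590-26562128, minus strand) encodes MKP-1, a nuclear phosphatase that prefers p38 and JNK and is induced by many stresses. Its promoter is shown because Dusp1 is one of the members whose etoposide change differed most between the genotypes. The promoter holds both the cyclic AMP response element TGACGTCA (CRE) and the E-box CACGTG, the core of the element that TFEB and TFE3 bind. The RefSeq window in GRCm38.p6, chr17:26508423-26508722 on the minus strand, from 250 bases before to 50 after the start, reads 5′ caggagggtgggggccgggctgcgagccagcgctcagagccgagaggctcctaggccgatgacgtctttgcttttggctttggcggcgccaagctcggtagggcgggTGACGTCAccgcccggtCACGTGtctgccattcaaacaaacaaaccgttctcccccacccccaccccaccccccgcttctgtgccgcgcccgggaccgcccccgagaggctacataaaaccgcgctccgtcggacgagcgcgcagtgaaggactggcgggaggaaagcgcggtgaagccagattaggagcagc 3′, with the CRE beginning at position -143 and the E-box at position -126 from the start. This is the RefSeq start, which lies inside the GENCODE span given above and far from its outermost start. A match to a motif describes the sequence and does not show binding. Dusp1 was measured at 21.5, 21.3 and 20.0 CPM in untreated Null MEFs, 148, 161 and 173 CPM in Null MEFs after etoposide, 17.4, 18.1 and 16.7 CPM in untreated DKO MEFs and 52.1, 51.9 and 51.8 CPM in DKO MEFs after etoposide. The untreated libraries of both genotypes were low, the 3 Null libraries after etoposide were far above all others, and the DKO libraries after etoposide lay between, with no overlap between groups. With etoposide Dusp1 rose 7.67-fold in Null MEFs, a log2 fold change of 2.94 (SE 0.05). In DKO MEFs it rose 2.98-fold, or 1.58 on the log2 scale (SE 0.05). The difference between these changes was -1.36 (SE 0.08, adjusted p = 1.04e-10) by the quasi-likelihood test of edgeR (Benjamini-Hochberg adjusted). DKO MEFs were lower by a log2 difference of -0.26 (SE 0.06, adjusted p = 5.66e-04) untreated and -1.63 (SE 0.05, adjusted p = 8.09e-15) after etoposide in the same edgeR test. Dusp1 shares 11 exonic bases with Ergic1 on the other strand, and although the paper names a stranded library kit, the sources used here do not say whether the counting used strand.

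Dusp2 (chr2:127336159-127338376, plus strand) encodes PAC-1, a nuclear phosphatase of ERK and p38 best known from lymphocytes. Its promoter also carries the E-box CACGTG, at position -109, and the RefSeq window in GRCm38.p6, chr2:127335909-127336208 on the plus strand, reads 5′ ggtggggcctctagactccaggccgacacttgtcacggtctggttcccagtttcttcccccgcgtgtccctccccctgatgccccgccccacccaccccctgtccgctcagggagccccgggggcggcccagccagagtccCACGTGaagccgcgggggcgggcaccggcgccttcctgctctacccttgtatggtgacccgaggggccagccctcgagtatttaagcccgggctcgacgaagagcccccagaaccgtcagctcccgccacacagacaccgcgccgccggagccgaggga 3′. Dusp2 was measured at 6.97, 7.02 and 6.61 CPM in untreated Null MEFs, 11.8, 12.3 and 13.6 CPM in Null MEFs after etoposide, 0.0902, 0.120 and 0.403 CPM in untreated DKO MEFs and 1.03, 0.573 and 0.844 CPM in DKO MEFs after etoposide. Both DKO groups were close to the limit of detection, with 6, 11 and 24 counts untreated and 51, 42 and 85 counts after etoposide, and all were below every Null library. Within each genotype the etoposide libraries were above the untreated ones. DKO MEFs were lower by a log2 difference of -5.18 (SE 0.24, adjusted p = 2.72e-12) untreated and -3.97 (SE 0.16, adjusted p = 3.46e-13) after etoposide by the quasi-likelihood test of edgeR (Benjamini-Hochberg adjusted). Etoposide raised Dusp2 1.82-fold in Null MEFs, with a log2 fold change of 0.87 (SE 0.11, adjusted p = 1.08e-06) in the same edgeR test, a call that limma-trend did not make. In DKO MEFs the log2 fold change was 2.07 (SE 0.39, adjusted p = 1.29e-04) by edgeR. Without untreated DKO replicate 3 that value was 2.87 and the untreated difference -5.98, both still past the threshold. The interaction, 1.21 (SE 0.42, adjusted p = 0.0218) by edgeR, rests on few counts: it was past the threshold neither by limma-trend nor without untreated DKO replicate 1 (0.89), untreated DKO replicate 2 (0.85), etoposide DKO replicate 1 (1.06) or etoposide DKO replicate 3 (1.13), and it was 2.01 without untreated DKO replicate 3.

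Dusp4 (chr8:34807297-34819894, plus strand) encodes MKP-2, the nuclear phosphatase closest to MKP-1. Dusp4 has no entry in the promoter table. Dusp4 was measured at 22.8, 17.5 and 19.5 CPM in untreated Null MEFs, 10.5, 8.50 and 10.5 CPM in Null MEFs after etoposide, 0.0902, 0.152 and 0.101 CPM in untreated DKO MEFs and 0.850, 1.27 and 0.695 CPM in DKO MEFs after etoposide. Null libraries were high and untreated DKO libraries nearly empty, with 6, 14 and 6 counts, and after etoposide the DKO libraries, with 42, 93 and 70 counts, were above the untreated ones but still below every Null library. Untreated, the gene was lower in DKO MEFs by a log2 difference of -7.37 (SE 0.24, adjusted p = 1.60e-14) by the quasi-likelihood test of edgeR (Benjamini-Hochberg adjusted), the largest difference of any member in any of the 5 comparisons. After etoposide the difference was -3.41 (SE 0.18, adjusted p = 1.12e-11) by the same edgeR test. The drug moved the gene in opposite directions: it fell by 1.03 on the log2 scale in Null MEFs (SE 0.11, adjusted p = 1.25e-07) and rose by 2.93 in DKO MEFs (SE 0.46, adjusted p = 2.13e-05), both by edgeR. The interaction was 3.96 (SE 0.46, adjusted p = 1.09e-06) by edgeR, and it was past the threshold in all 20 alternatives, with values from 3.65 to 4.26.

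Dusp5 (chr19:53529109-53542431, plus strand) encodes a nuclear phosphatase specific for ERK. Dusp5 was measured at 129, 120.4 and 125 CPM in untreated Null MEFs, 47.4, 42.1 and 46.6 CPM in Null MEFs after etoposide, 71.8, 73.6 and 69.8 CPM in untreated DKO MEFs and 16.2, 15.8 and 16.1 CPM in DKO MEFs after etoposide. The untreated Null libraries were highest, the etoposide DKO libraries lowest, and no groups overlapped. The gene fell by 1.46 on the log2 scale with etoposide in Null MEFs (SE 0.05, adjusted p = 4.65e-15) and by 2.16 in DKO MEFs (SE 0.05, adjusted p = 1.42e-16), with an interaction of -0.70 (SE 0.07, adjusted p = 9.16e-08), all by the quasi-likelihood test of edgeR (Benjamini-Hochberg adjusted). Against Null MEFs the DKO level was lower by a log2 difference of -0.80 (SE 0.04, adjusted p = 2.83e-11) untreated and -1.50 (SE 0.05, adjusted p = 2.34e-14) after etoposide by edgeR. Its exons share 547 bases with an antisense gene, whose reads cannot be told from those of Dusp5 where strand was not used. Its promoter held none of the 4 motifs.

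Dusp6 (chr10:99263231-99267489, plus strand) encodes MKP-3, the cytoplasmic phosphatase of ERK whose transcription is widely used as a readout of ERK activity. Dusp6 was measured at 109, 106 and 101 CPM in untreated Null MEFs, 203, 197 and 192 CPM in Null MEFs after etoposide, 79.4, 75.5 and 74.9 CPM in untreated DKO MEFs and 76.3, 68.9 and 74.6 CPM in DKO MEFs after etoposide. The etoposide Null libraries stood above all others, the untreated Null libraries came next, and the DKO libraries with and without the drug overlapped. Etoposide raised Dusp6 1.88-fold in Null MEFs, a log2 fold change of 0.91 (SE 0.04, adjusted p = 1.22e-12) by the quasi-likelihood test of edgeR (Benjamini-Hochberg adjusted). In DKO MEFs the log2 fold change was -0.06 (SE 0.04, adjusted p = 0.18) by edgeR, not past the threshold. It was 0.21 and called higher with library size alone, and -0.10 with no expression filter and -0.11 without etoposide DKO replicate 1, where it was called lower. The interaction was -0.97 (SE 0.06, adjusted p = 4.12e-10) by edgeR. Between the genotypes the log2 difference was -0.46 (SE 0.04, adjusted p = 3.23e-08) untreated and -1.43 (SE 0.04, adjusted p = 5.84e-15) after etoposide, both by edgeR.

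Dusp7 (chr9:106368632-106375724, plus strand) encodes MKP-X, the other cytoplasmic ERK phosphatase of the list. Its promoter is shown because its etoposide change differed more between the genotypes than that of any other member with a promoter in the table, and it holds none of the 4 motifs looked for. The RefSeq window in GRCm38.p6, chr9:106368382-106368681 on the plus strand, reads 5′ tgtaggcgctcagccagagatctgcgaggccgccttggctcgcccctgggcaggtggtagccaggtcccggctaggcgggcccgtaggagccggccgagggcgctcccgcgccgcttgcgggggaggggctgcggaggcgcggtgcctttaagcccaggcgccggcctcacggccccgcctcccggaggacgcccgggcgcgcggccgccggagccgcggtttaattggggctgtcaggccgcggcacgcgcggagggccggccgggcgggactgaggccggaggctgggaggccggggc 3′, and 78.7% of its bases are G or C, the highest share among the 9 members with an entry. Dusp7 was measured at 51.6, 48.3 and 52.0 CPM in untreated Null MEFs, 82.8, 75.2 and 80.6 CPM in Null MEFs after etoposide, 144, 151 and 144 CPM in untreated DKO MEFs and 70.3, 68.3 and 65.6 CPM in DKO MEFs after etoposide. Untreated DKO libraries were highest and untreated Null libraries lowest, and the etoposide libraries of the genotypes came to lie close together, the DKO ones a little below. Thus Dusp7 rose 1.57-fold in Null MEFs, a log2 fold change of 0.65 (SE 0.04, adjusted p = 2.73e-10), and fell by 1.11 on the log2 scale in DKO MEFs (SE 0.04, adjusted p = 1.94e-13) in the same edgeR test. The interaction was -1.76 (SE 0.06, adjusted p = 3.42e-13) by edgeR. The genotype difference changed sign, from 1.53 (SE 0.04, adjusted p = 3.65e-15) untreated to -0.23 (SE 0.04, adjusted p = 1.52e-04) after etoposide, on the log2 scale by edgeR.

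Dusp8 (chr7:142079490-142095843, minus strand) encodes a phosphatase of JNK and p38 that is best known from brain and heart. Its promoter held the CRE TGACGTCA at positions -107 and -63 from the RefSeq start, which lies inside the GENCODE span. Dusp8 varied least between groups of the JNK and p38 phosphatases, and was measured at 46.2, 47.7 and 47.9 CPM in untreated Null MEFs, 49.2, 52.3 and 52.9 CPM in Null MEFs after etoposide, 59.9, 64.5 and 56.4 CPM in untreated DKO MEFs and 49.7, 47.8 and 47.7 CPM in DKO MEFs after etoposide. Untreated DKO libraries were above the rest, and the genotypes overlapped after etoposide. In Null MEFs the log2 fold change was 0.12 (SE 0.05, adjusted p = 0.0267) by the quasi-likelihood test of edgeR (Benjamini-Hochberg adjusted). That call was lost with no expression filter (0.09), and without untreated Null replicate 1 (0.10), 2 (0.12) or 3 (0.12) or etoposide Null replicate 2 (0.11) or 3 (0.09). Over all 15 alternatives the value ran from 0.09 to 0.29. In DKO MEFs the gene fell by 0.32 on the log2 scale (SE 0.05, adjusted p = 1.15e-05) by edgeR, but with library size alone the value was -0.0450 and not past the threshold. The interaction was -0.44 (SE 0.07, adjusted p = 2.63e-05) by edgeR. The genotypes differed by 0.35 (SE 0.05, adjusted p = 3.76e-06) untreated, and the difference of -0.09 (SE 0.05, adjusted p = 0.104) after etoposide was not past the threshold by edgeR, though it was in 5 of 15 alternatives. These were DESeq2 (-0.15), its size factors in edgeR (-0.15), the stricter filter (-0.15), and leaving out etoposide Null replicate 1 (-0.13) or etoposide DKO replicate 1 (-0.13). Dusp8 shares 66 exonic bases with a non-coding gene on the other strand.

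Dusp10 (chr1:184013302-184075636, plus strand) encodes MKP-5, which is selective for JNK and p38 and is found in both nucleus and cytoplasm. Its promoter is shown because Dusp10 had the second largest interaction among the members with an entry, and it held none of the 4 motifs. The RefSeq window in GRCm38.p6, chr1:184034131-184034430 on the plus strand, reads 5′ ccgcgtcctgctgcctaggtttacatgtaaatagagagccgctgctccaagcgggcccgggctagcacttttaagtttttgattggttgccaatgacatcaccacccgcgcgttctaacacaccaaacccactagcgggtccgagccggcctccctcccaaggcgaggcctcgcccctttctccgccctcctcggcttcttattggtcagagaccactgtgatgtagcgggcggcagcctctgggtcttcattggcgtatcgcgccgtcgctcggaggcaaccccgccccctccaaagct 3′, and its RefSeq start likewise lies inside the GENCODE span and far from the outermost start. Dusp10 was measured at 17.9, 16.9 and 17.7 CPM in untreated Null MEFs, 13.4, 13.3 and 12.9 CPM in Null MEFs after etoposide, 21.8, 23.6 and 23.9 CPM in untreated DKO MEFs and 6.47, 5.41 and 6.46 CPM in DKO MEFs after etoposide. Untreated DKO libraries were highest and etoposide DKO libraries lowest, with both Null groups between them and no overlap. The gene fell by 0.40 on the log2 scale in Null MEFs (SE 0.06, adjusted p = 2.10e-05) and by 1.92 in DKO MEFs (SE 0.07, adjusted p = 8.86e-14) by the quasi-likelihood test of edgeR (Benjamini-Hochberg adjusted), and the interaction was -1.51 (SE 0.10, adjusted p = 6.74e-10). Over the 15 alternatives the log2 fold change in Null MEFs ran from -0.44 to -0.24, past the threshold in all. As with Dusp7, the genotype difference changed sign, from 0.40 (SE 0.06, adjusted p = 1.99e-05) untreated to -1.11 (SE 0.07, adjusted p = 2.90e-10) after etoposide by edgeR.

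Dusp16 (chr6:134715468-134792625, minus strand) encodes MKP-7, a shuttling phosphatase of JNK and p38, and was the member with the most similar behaviour in the genotypes. Dusp16 was measured at 77.3, 85.2 and 75.8 CPM in untreated Null MEFs, 39.7, 38.5 and 36.3 CPM in Null MEFs after etoposide, 72.5, 75.2 and 75.1 CPM in untreated DKO MEFs and 38.8, 39.8 and 35.9 CPM in DKO MEFs after etoposide. The etoposide libraries of both genotypes lay at about the same level and overlapped, and all were below all untreated libraries, of which the DKO ones were each a little below the Null ones. It fell by 1.06 on the log2 scale in Null MEFs (SE 0.05, adjusted p = 2.50e-12) and by 0.96 in DKO MEFs (SE 0.05, adjusted p = 1.63e-11) by the quasi-likelihood test of edgeR (Benjamini-Hochberg adjusted). The interaction, 0.09 (SE 0.07, adjusted p = 0.302), was not past the threshold by edgeR, but was 0.20 and past it with library size alone. Of the genotype differences, -0.10 (SE 0.05, adjusted p = 0.0999) untreated and -0.00322 (SE 0.05, adjusted p = 0.959) after etoposide, neither was past the threshold by edgeR. The untreated one was -0.22 and past it with library size alone, and -0.10 and past it with only the 6 libraries compared.

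Dusp14 (chr11:84048041-84069261, minus strand) encodes MKP-6, known as a negative regulator of T cell signalling. Dusp14 was measured at 112, 110.1 and 108 CPM in untreated Null MEFs, 59.1, 58.4 and 62.8 CPM in Null MEFs after etoposide, 140.2, 146 and 149 CPM in untreated DKO MEFs and 46.1, 47.0 and 47.1 CPM in DKO MEFs after etoposide. As for Dusp10, untreated DKO libraries were the highest, and etoposide DKO libraries were the lowest, with no overlap between groups. The log2 fold change with etoposide was -0.87 (SE 0.04, adjusted p = 4.14e-13) in Null and -1.63 (SE 0.04, adjusted p = 1.72e-16) in DKO MEFs by the quasi-likelihood test of edgeR (Benjamini-Hochberg adjusted). The interaction was -0.76 (SE 0.05, adjusted p = 1.71e-09) by edgeR. DKO MEFs were higher by 0.40 (SE 0.04, adjusted p = 2.36e-08) untreated and lower after etoposide, -0.36 (SE 0.04, adjusted p = 1.41e-07), on the log2 scale by edgeR.

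Of the 10 members, 9 had a promoter in the table. The CRE was found in 2 of the 9 (Dusp1 and Dusp8) and in 1.79% of the 32851 promoters of the table, and the E-box in 2 (Dusp1 and Dusp2) and in 7.15%. No member's promoter held the AP-1 site TGACTCA or the ETS site CCGGAAG on either strand, which 5.2% and 8.86% of all promoters held. TGACGTCA and CACGTG read the same on both strands, and no matches overlapped. The members lie on 10 different chromosomes, and the annotated genes span from 2218 bases for Dusp2 to 77158 bases for Dusp16.

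To compare members with each other, counts were also divided by the summed exon length of each gene (RPKM). In untreated Null MEFs Dusp14 was the most abundant member per length, at 56.4 ± 1.06 RPKM (SD, n = 3), followed by Dusp5 at 50.5 ± 1.83 and Dusp6 at 33.6 ± 1.17 RPKM (SD, n = 3 each), and Dusp2 was the least abundant at 3.43 ± 0.112 RPKM (SD, n = 3). Between these came Dusp7, Dusp16, Dusp8, Dusp4, Dusp1 and Dusp10 in falling order, where Dusp16 overlapped with Dusp8 and Dusp4 with Dusp1. After etoposide the order in Null MEFs was led by Dusp6 at 63.0 ± 1.78 and Dusp1 at 48.5 ± 3.69 RPKM (SD, n = 3 each), and Dusp4 was lowest at 3.58 ± 0.418 RPKM (SD, n = 3). In untreated DKO MEFs Dusp14, at 74.6 ± 2.28 RPKM, and Dusp7, at 43.6 ± 1.14 RPKM, led (SD, n = 3 each), and Dusp2 and Dusp4 were lowest and overlapped, at 0.102 ± 0.0861 and 0.0417 ± 0.0121 RPKM (SD, n = 3 each). After etoposide Dusp14 and Dusp6 led in DKO MEFs, at 24.0 ± 0.288 and 23.4 ± 1.23 RPKM (SD, n = 3 each), and overlapped, and Dusp2 and Dusp4 again overlapped at the bottom.

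Summed over the 10 members, the length-scaled level was 203, 196 and 195 RPKM in untreated Null MEFs, 213, 210.0 and 219 RPKM in Null MEFs after etoposide, 204, 210.0 and 206 RPKM in untreated DKO MEFs and 109, 106 and 107 RPKM in DKO MEFs after etoposide. The etoposide DKO libraries stood well below all others, while the other groups lay near each other. The classes made up different shares of that sum. The nuclear phosphatases Dusp1, Dusp2, Dusp4 and Dusp5 held 34.0 ± 0.799% in untreated Null MEFs and 35.8 ± 1.37% after etoposide (SD, n = 3 each). In DKO MEFs the nuclear class held 16.7 ± 0.343% untreated and 21.3 ± 0.215% after etoposide (SD, n = 3 each). The ERK phosphatases Dusp6 and Dusp7 held 24.6 ± 0.0690% untreated and 40.5 ± 1.52% after etoposide in Null MEFs, and 33.0 ± 0.563% and 40.6 ± 0.749% in DKO MEFs (SD, n = 3 each). Dusp8, Dusp10 and Dusp16 together held 12.9 ± 0.482% and 9.25 ± 0.268% in Null MEFs, and 14.3 ± 0.273% and 15.7 ± 0.190% in DKO MEFs, untreated and after etoposide (SD, n = 3 each). The atypical Dusp14 held 28.5 ± 0.355% and 14.4 ± 0.266% in Null MEFs, and 36.1 ± 0.946% and 22.4 ± 0.617% in DKO MEFs, in the same order (SD, n = 3 each). A share can rise while the level falls. In DKO MEFs the nuclear class went with etoposide from 34.4 ± 0.912 to 22.9 ± 0.154 RPKM (SD, n = 3 each). The ERK phosphatases went there from 68.1 ± 1.13 to 43.7 ± 1.51 RPKM (SD, n = 3 each). Dusp8, Dusp10 and Dusp16 together went from 29.5 ± 1.01 to 16.8 ± 0.407 RPKM (SD, n = 3 each). These shares are a description of RNA levels and were not tested.

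**Figure D3:**
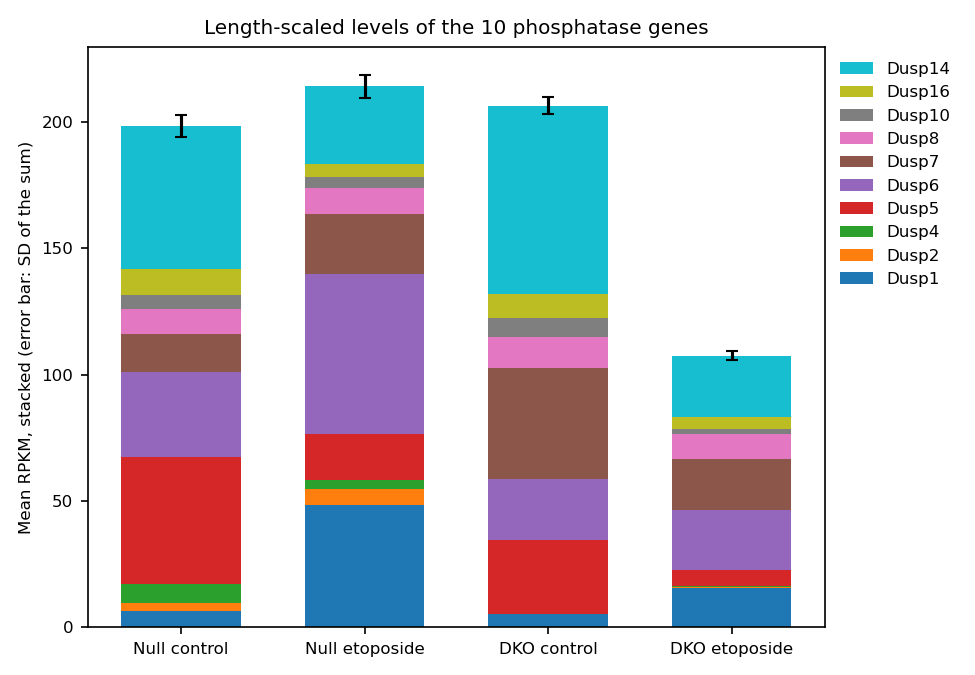
Mean length-scaled level (RPKM, vertical axis) of the 10 members stacked by group (horizontal axis), with the SD of the sum over 3 libraries as error bar. The sum was 107 ± 1.75 RPKM in DKO MEFs after etoposide and 214 ± 4.61 RPKM in Null MEFs after etoposide (SD).

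Of the 10 genes of MAP kinases, which these phosphatases act on, 9 were tested, and in Null MEFs etoposide left 2 higher and 7 lower (4 lower with library size alone), with a median log2 fold change of -0.19 beside -0.14 for the phosphatases. Of all genes tested, 42.3% were higher and 37.2% lower there. In DKO MEFs 2 higher and 4 lower were called, numbers that moved from 0 to 5 higher and from 1 to 5 lower over the alternatives, against 43.7% and 31.5% of all genes. DKO MEFs after etoposide had 3 higher and 2 lower than Null MEFs, where 37.5% of all genes were higher and 36.6% lower, with a median of 0.01 beside -1.27 for the phosphatases. Mapk11, p38 beta, went with etoposide from 24.2 ± 2.15 to 14.1 ± 0.308 CPM (SD, n = 3 each) in Null MEFs, where its log2 fold change was -0.77 (SE 0.07, adjusted p = 2.44e-08) by the quasi-likelihood test of edgeR (Benjamini-Hochberg adjusted). For Mapk13, p38 delta, DKO MEFs had 7.75 ± 0.454 CPM after etoposide against 1.42 ± 0.158 CPM in Null MEFs (SD, n = 3 each), and the log2 difference was 2.43 (SE 0.15, adjusted p = 8.29e-11) by edgeR. This gap was there without the drug, with 6.04 ± 0.689 CPM in untreated DKO and 0.640 ± 0.272 CPM in untreated Null MEFs (SD, n = 3 each). Mapk3, which is ERK1, went in DKO MEFs from 60.0 ± 2.48 to 35.9 ± 1.91 CPM (SD, n = 3 each), where its log2 fold change was -0.75 (SE 0.05, adjusted p = 2.51e-10) by edgeR. It also fell in Null MEFs, from 54.2 ± 2.70 to 35.4 ± 0.511 CPM (SD, n = 3 each), with a log2 fold change of -0.62 (SE 0.05).

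All 7 MAP kinase kinase genes fell with etoposide in Null MEFs (4 with library size alone), where 79.4% of all genes were called and 37.2% were lower. In DKO MEFs 1 higher and 5 lower were called (3 higher and 3 lower with library size alone), against 43.7% higher and 31.5% lower of all genes. The largest fall in Null MEFs was that of Map2k6, an activator of p38, from 2.20 ± 0.155 to 0.880 ± 0.172 CPM (SD, n = 3 each). Its log2 fold change there was -1.31 (SE 0.18, adjusted p = 3.09e-06) by the quasi-likelihood test of edgeR (Benjamini-Hochberg adjusted). Map2k6 also fell most in DKO MEFs, from 1.99 ± 0.139 to 0.679 ± 0.142 CPM (SD, n = 3 each). The log2 fold change in DKO MEFs was -1.51 (SE 0.19, adjusted p = 1.8e-06) by edgeR. Map2k2, which is MEK2, was the only 1 of the 7 that rose in DKO MEFs, from 177 ± 9.10 to 214 ± 3.51 CPM (SD, n = 3 each), with a log2 fold change of 0.27 (SE 0.04, adjusted p = 1.07e-05) by edgeR. For Map2k1, which is MEK1, DKO MEFs after etoposide had 168 ± 5.88 CPM against 95.9 ± 1.29 CPM in Null MEFs (SD, n = 3 each), and the log2 difference was 0.81 (SE 0.03, adjusted p = 3.84e-13) by edgeR. Without the drug Map2k1 was at 182 ± 3.16 CPM in DKO and 113 ± 0.582 CPM in Null MEFs (SD, n = 3 each). Map2k3, another activator of p38, had the lowest interaction of the 7, -1.02 (SE 0.05, adjusted p = 2.25e-11), and Map2k7, an activator of JNK, the highest, 0.44 (SE 0.06, adjusted p = 3.63e-06), both by edgeR.

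Of 20 MAP kinase kinase kinases tested, 8 higher and 9 lower were called with etoposide in Null MEFs, 9 higher and 9 lower in DKO MEFs, and 10 higher and 7 lower in DKO against Null MEFs after etoposide. Beside these stand 42.3% higher and 37.2% lower of all genes in Null MEFs, 43.7% and 31.5% in DKO MEFs, and 37.5% and 36.6% between the genotypes. Map3k9, a mixed-lineage kinase upstream of JNK, had 7, 5 and 7 counts in untreated Null MEFs and 4.84, 4.48 and 3.08 CPM after etoposide. Its log2 fold change there was 5.51 (SE 0.31, adjusted p = 1.72e-11) by the quasi-likelihood test of edgeR (Benjamini-Hochberg adjusted). Map3k13, another kinase upstream of JNK, had 11.9, 10.6 and 10.5 CPM in Null and 1.17, 1.13 and 0.834 CPM in DKO MEFs after etoposide, and the log2 difference was -3.44 (SE 0.13, adjusted p = 1.85e-13) by edgeR. A gap was there without the drug, with 1.16 ± 0.243 CPM in untreated Null and 0.0943 ± 0.0129 CPM in untreated DKO MEFs (SD, n = 3 each). The log2 fold change of Map3k13 with etoposide was 3.25 (SE 0.13) in Null and 3.37 (SE 0.37) in DKO MEFs. Braf, a kinase upstream of MEK and ERK, went with etoposide from 124 ± 7.63 to 53.4 ± 2.62 CPM in Null MEFs (SD, n = 3 each), with a log2 fold change of -1.22 (SE 0.05, adjusted p = 2.71e-13) by edgeR. In DKO MEFs the log2 fold change of Braf was -0.62 (SE 0.05). Map3k14, a kinase of the noncanonical NF-kappa B pathway, went from 74.5 ± 3.51 to 27.4 ± 1.53 CPM in DKO MEFs (SD, n = 3 each), and its log2 fold change was -1.45 (SE 0.05, adjusted p = 3.87e-14) by edgeR. In Null MEFs the log2 fold change of Map3k14 was -0.63 (SE 0.05).

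Of 16 genes that report ERK output or feed back on it, 3 higher and 10 lower were called in DKO against Null MEFs untreated and 2 higher and 13 lower after etoposide, against 33.3% higher and 33.4% lower of all genes untreated and 37.5% and 36.6% after it. Their medians there were -0.55 and -1.04, beside -0.18 and -1.27 for the phosphatases and -0.02 and -0.00446 for all genes. With etoposide 5 higher and 9 lower were called in Null MEFs (42.3% and 37.2% of all genes) and 6 higher and 10 lower in DKO MEFs (43.7% and 31.5%). Spry4, an inhibitor of receptor signalling to ERK, went in Null MEFs from 16.1 ± 1.07 to 2.41 ± 0.203 CPM (SD, n = 3 each), and its log2 fold change was -2.74 (SE 0.10, adjusted p = 5.02e-14) by the quasi-likelihood test of edgeR (Benjamini-Hochberg adjusted). Its relative Spry1 went there from 0.580 ± 0.0371 to 3.73 ± 0.201 CPM (SD, n = 3 each), and its log2 fold change was 2.67 (SE 0.19, adjusted p = 4.18e-10) by edgeR. Phlda1 was at 103, 109.7 and 83.8 CPM in untreated Null MEFs, 93.5, 84.7 and 81.6 CPM in Null MEFs after etoposide, 158, 170.5 and 149.6 CPM in untreated DKO MEFs and 29.0, 30.4 and 24.0 CPM in DKO MEFs after etoposide. The etoposide DKO libraries of Phlda1 were far below all others, and its interaction was -2.34 (SE 0.13, adjusted p = 9.69e-11) by edgeR. Epha4, an ephrin receptor, had 0.231 ± 0.117 CPM in DKO against 4.22 ± 0.159 CPM in Null MEFs after the drug (SD, n = 3 each), and the log2 difference was -4.28 (SE 0.22, adjusted p = 6.17e-12) by edgeR. The gap was there without the drug, with 0.0795 ± 0.0363 CPM in untreated DKO and 11.99 ± 0.736 CPM in untreated Null MEFs (SD, n = 3 each). Epha4 does not pass the expression filter on the DKO libraries alone. Spred1 was the gene of this list most above Null MEFs in DKO MEFs after etoposide, 128 ± 3.52 against 82.1 ± 1.83 CPM (SD, n = 3 each), and the log2 difference was 0.64 (SE 0.03, adjusted p = 1.73e-11) by edgeR. Without the drug Spred1 was at 210 ± 6.06 CPM in DKO and 176 ± 3.26 CPM in Null MEFs (SD, n = 3 each).

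**Figure D4:**
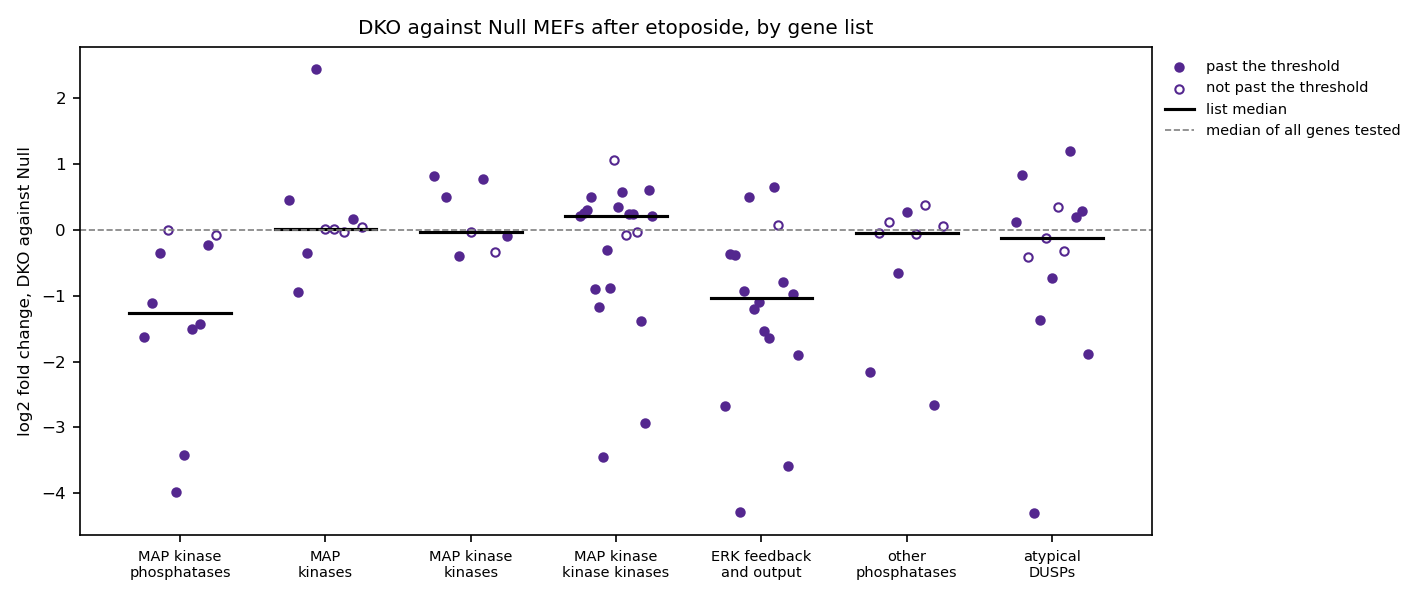
Log2 difference of DKO against Null MEFs after etoposide (vertical axis) for each gene tested in the 10 phosphatases and 6 lists of related genes (horizontal axis), with filled points past the threshold and a black line at the list's median. The medians were -1.27 for the phosphatases, -1.04 for the ERK feedback and output genes and 0.01 for the MAP kinases, and the dashed line at -0.00446 is the median of all genes tested.

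Among 9 other phosphatases that act on MAP kinases, 5 higher and 3 lower were called with etoposide in Null MEFs (42.3% and 37.2% of all genes) and 5 higher and 3 lower in DKO MEFs (43.7% and 31.5%). In DKO against Null MEFs after etoposide 1 higher and 3 lower were called (37.5% and 36.6% of all genes). Of these counts the lower was 5 without etoposide DKO replicate 3, by DESeq2, with its size factors and with the stricter filter, and the higher was 2 without etoposide Null replicate 2, by limma-trend and with a replicate block. The list includes Dusp9, an ERK-directed phosphatase of the same family that is not among the 10 members. Dusp9, named here after seeing the data, had 32.0 ± 1.05 CPM in untreated Null MEFs and 54.6 ± 1.55 CPM after the drug, and 5.46 ± 0.539 and 12.1 ± 1.24 CPM in DKO MEFs (SD, n = 3 each). Ppm1d, a known p53 target that dephosphorylates p38, went in Null MEFs from 31.5 ± 0.590 to 104 ± 2.05 CPM (SD, n = 3 each), and its log2 fold change was 1.72 (SE 0.04, adjusted p = 3.61e-17) by the quasi-likelihood test of edgeR (Benjamini-Hochberg adjusted). Its interaction was -0.59 (SE 0.05, adjusted p = 2.73e-08) by edgeR. Ptpn7, a tyrosine phosphatase of ERK and p38, was measured at 3.33, 3.73 and 3.85 CPM in untreated Null MEFs, 9.44, 9.77 and 10.7 CPM in Null MEFs after etoposide, 0.135, 0.120 and 0.0671 CPM in untreated DKO MEFs and 0.991, 1.91 and 1.65 CPM in DKO MEFs after etoposide. Like Dusp2 and Dusp4 it was nearly empty in untreated DKO libraries and above that after etoposide, still below every Null library, with a log2 difference of -2.65 (SE 0.14, adjusted p = 7.79e-12) from Null MEFs after etoposide by edgeR. The other named genes of this list moved by less than 1 on the log2 scale. They were Ppp2cb, -0.61 (SE 0.03, adjusted p = 7.27e-12) with etoposide in Null MEFs, Ppm1b, -0.57 (SE 0.05, adjusted p = 2.51e-08) in DKO MEFs, and Ppp2ca, 0.27 (SE 0.03, adjusted p = 7.20e-07) in DKO against Null MEFs after etoposide, all by edgeR. Ppp2cb was at -0.40 (SE 0.03) with etoposide in DKO MEFs, and Ppm1b at -0.55 (SE 0.05) in Null MEFs.

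Of 13 atypical dual-specificity phosphatases tested, 5 higher and 5 lower were called with etoposide in Null MEFs (42.3% and 37.2% of all genes) and 5 higher and 4 lower in DKO against Null MEFs after etoposide (37.5% and 36.6%). Dusp15 went from 17, 7 and 2 counts in untreated Null MEFs to 415, 397 and 359 counts after etoposide, with a log2 fold change of 5.33 (SE 0.27, adjusted p = 2.36e-13) by the quasi-likelihood test of edgeR (Benjamini-Hochberg adjusted), or 6.14 without untreated Null replicate 1. With 4, 20 and 33 counts in DKO MEFs after etoposide, its log2 difference from Null MEFs was -4.29 (SE 0.23, adjusted p = 9.66e-13) by edgeR. The gene was well measured only in Null MEFs after etoposide and does not pass the expression filter on the DKO libraries alone, so these values are imprecise. Dusp18 fell in both genotypes, by 1.49 on the log2 scale in Null MEFs (SE 0.07, adjusted p = 5.84e-13) and by 1.32 in DKO MEFs (SE 0.08, adjusted p = 8.47e-11), both by edgeR. Dusp28 was the most above Null MEFs in DKO MEFs after etoposide, with a log2 difference of 1.19 (SE 0.09, adjusted p = 1.49e-09), and Dusp12 had the highest interaction among those with at least 1 CPM on average, 0.52 (SE 0.08, adjusted p = 2.11e-05), both by edgeR. Without the drug Dusp28 was at 7.23 ± 0.225 CPM in DKO and 2.42 ± 0.243 CPM in Null MEFs (SD, n = 3 each). Whether the strand kept by the library kit was used in counting is not stated, so reads of overlapping genes may be among these counts. Exonic bases are shared with genes on the other strand in Braf (146), Map3k13 (54), Spry1 (710), Phlda1 (727), Ppp2ca (2985 and 108), Dusp12 (891 and 474) and Dusp28 (58), and on the same strand in Map2k7 (1349), Map3k13 (227), Map3k14 (135) and Ppp2ca (91).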

How the data were processed

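The deposited table holds the authors' counts, whole numbers for 24421 genes in 12 libraries. It has 2 repeated symbols. The submitters' processing notes name HISAT2, featureCounts and mm10, while the paper's methods name HISAT2 and HTSeq, whose names the 5 summary lines of the table carry. The paper names a stranded total RNA kit with removal of ribosomal RNA. Neither versions nor the strand setting is given in the sources used here. Neither library sizes nor tests include those lines: 20.2 to 27.3% of a library lay on no feature, 15.9 to 20.5% was not unique and 0.428 to 0.513% ambiguous. Rn45s took 2.20 to 2.89% of the counts on genes in untreated Null MEFs and 3.81 to 4.37% in Null MEFs after etoposide. In DKO MEFs it took 1.66 to 1.95% untreated and 2.98 to 3.58% after etoposide. Every etoposide library lay above every untreated one, and the part of this in the results was not tested.

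In R 4.3.3, edgeR 4.0.16 kept 15220 genes (filterByExpr with the 4 groups), scaled them by TMM and fitted a quasi-likelihood model with 1 term per group to the 12 libraries together. Each contrast's p-values were adjusted (Benjamini-Hochberg) over all genes tested and called under 0.05. An SE is the log2 fold change over the root of its F. An exact permutation test of 3 against 3 libraries cannot give a two-sided p under 0.1. Replicates spread more widely than sampling alone gives (chi-square over its degrees of freedom 10.0 to 22.1). The replicate number was not taken to pair libraries. RPKM values use summed exon lengths of GENCODE M21.

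Alternatives were DESeq2 1.42.0, limma-trend with robust estimates (limma 3.58.1, the study's test), DESeq2 size factors, library size alone, no filter, a mean of at least 1 CPM, the replicate block, only the 6 libraries compared, and each library left out. The main fit was changed after seeing the data: the first run used the default of edgeR 4.0.16, its legacy quasi-likelihood fit, and the newer fit replaced it once those results were known, because earlier processing of these data used it. The legacy fit is kept as an alternative chosen after seeing the data, and it calls the same number of members in each comparison. The members, though taken by symbol as known family members, and the lists were chosen with earlier results of these data known. Dusp9, a further family member, was placed in a list and not among the members. Named genes are the 10 members, Tfeb and Tfe3, and from each of 6 lists the called genes with the largest rise and the largest fall and at least 1 CPM on average, for etoposide in either genotype, DKO against Null after etoposide and the interaction, with repeats left out. The result of 1 gene so picked is not reported. Promoters are printed for the 4 members with an entry and the largest interaction. Map3k20 was counted under its older symbol, Zak. Motifs were looked for on both strands.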

Additional observations from a re-analysis of the deposited data

Results flagged for a closer look

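The change with etoposide differed between Null and TFEB/TFE3 DKO MEFs in 9 of the 10 phosphatase genes by the test of the interaction in edgeR, given here as the log2 change in DKO MEFs minus that in Null MEFs, and 54% of all genes tested were called there. It was 3.96 for Dusp4, which fell in Null MEFs and rose in DKO MEFs. For Dusp2 it was 1.21, on few counts in DKO MEFs, and the call was lost in 5 of 20 alternatives. Dusp7, which rose in Null MEFs and fell in DKO MEFs, had -1.76. Dusp10, which fell in both, had -1.51. For Dusp1, which rose in both, it was -1.36. Dusp6 rose in Null MEFs and was not called in DKO MEFs, with a difference of -0.97. Dusp14 and Dusp5 fell in both genotypes and more in DKO MEFs, with -0.76 and -0.70. Dusp8 had -0.44.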

How the results depend on the processing

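Of 50 changes (10 members in 5 comparisons), 41 kept their direction and side of the threshold in every alternative run. Over 800 values, 13 lost and 10 gained a call in the same direction and 4 turned direction. Dusp6 in DKO MEFs was 0.21 with library size alone, which shifts the median of all genes by 0.27 there, by 0.17 for etoposide in Null MEFs, by -0.12 between untreated genotypes and by 0.10 in the interaction. It gave 7806 higher and 4396 lower genes in Null MEFs (6435 higher and 5656 lower with TMM), 9316 higher and 3004 lower in DKO MEFs (6645 higher and 4790 lower), 3977 higher and 6393 lower between untreated genotypes (5066 higher and 5091 lower) and 5734 higher and 3055 lower in the interaction (4507 higher and 3719 lower). The difference of Dusp16 after etoposide was 0.00135 with only the 6 libraries compared, 0.0196 without etoposide Null replicate 1, and from -0.0528 to 0.0290 without each library. That of Tfe3 was from -0.0550 to 0.0331 without each library. The cause was not tested. The number of members called was within 1.5 times the count reported in every alternative. With 8 to 10 of the 10 members called, that limit could not be passed upward, so it is a weak check. With the replicate number as a block the number of members called was 10, 9, 9, 8 and 9, as without the block, and same-numbered libraries did not deviate together (correlations from -0.0320 to 0.0429 over 18 pairs). Of 47 changes of other named genes 44 held in every alternative and none turned direction. Of 960 counts of list genes, 27 were lower and 14 higher by over 1.5 times. Counts of Dusp2 and Dusp4 in DKO MEFs limit their precision.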
